A study of Mus musculus with 9 samples.

Results

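The 35 Hox genes of the 4 mouse clusters were followed by cluster and number in the Lewis lung carcinoma line LLC1 and in SCC1 and SCC2, the subclones raised from LLC1 by limiting dilution. Members were chosen by symbol alone, as Hox followed by a, b, c or d and a number, with no requirement on their level, and made up 35 of the 15768 genes of the table. The mouse RefSeq table holds 39 such symbols. Hoxc11, Hoxc12, Hoxd1 and Hoxd12 were not analysed here. All 9 libraries, 3 per line, were labelled as untreated tumour cells of WT genotype with lung as the tissue, grown in DMEM with 10% fetal bovine serum. SCC1 and SCC2 are 1 clone each and were kept for 5 to 8 passages. Nothing in the labels ties the 3 libraries of a line to separate cultures, so every p-value below measures the spread between these libraries only, which may be technical.

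Hox genes encode homeodomain transcription factors that lie in 4 clusters, and the genes of one number in different clusters, called paralogues, arose from one ancestral gene. Within a cluster all genes are read in the same direction, and low numbers act towards the head and high numbers towards the tail and the ends of the limbs. Adult cells often keep part of the Hox code of the tissue they came from. In the lung, genes of low and middle number such as Hoxa5 are known for their part in the development of the airways.

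Levels are FPKM, the fragments of a gene scaled to gene length and library depth, so they can be compared between genes. Each library held 17094808 to 19398657 fragments, of which 3635 to 5433 fell on Hox genes, or 0.0214% to 0.0327% of the summed FPKM. The floor of detection was taken as 3 fragments in a library, which for Hoxa5 stood for 0.0823 to 0.0934 FPKM in a library. Of 9 markers of lung epithelium 5 had a row, 0 of them passing the filter on low values and 4 under 1 FPKM in every library, with a summed level of 0.913 to 1.03 FPKM in LLC1, 0.356 to 0.888 in SCC1 and 1.09 to 1.22 in SCC2. Most of this sum was Ager (0.892, 0.551 and 1.13 FPKM in the 3 lines), while Nkx2-1 and Sftpc, which define lung epithelium, had means of 0.0222 FPKM or less, so the labelled tissue was not seen in its defining markers. Macrophage markers summed to 15.9 to 17.3 FPKM in LLC1, 28.1 to 32.1 in SCC1 and 18.8 to 19.3 in SCC2, and fibroblast markers to 9.75 to 10.9, 6.41 to 6.60 and 6.25 to 6.92. Of 3 macrophage markers tested 3 were higher in SCC1 than in LLC1, and in SCC2 1 was higher and 1 lower. Both fibroblast markers tested were lower in both subclones. Among all tested genes 39.2% were higher and 30.9% lower in SCC1, and 34.7% and 32.9% in SCC2, so counts over so few markers say little. The lymphocyte and endothelial markers with a row, 2 and 4, were all under 1 FPKM. Their part in the results on Hox genes was not tested.

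LLC1 carried a Hox code that reached up to number 10. A gene was called present in a line when all 3 of its libraries held at least 1 FPKM. By this measure 19 of the 35 members were present in LLC1, 14 in SCC1 and 16 in SCC2, beside 10243, 10105 and 10057 of the 15768 genes of the table. Of the 35, 13 were present in all 3 lines, among them Hoxa5, Hoxa6 and Hoxa7, Hoxb2, Hoxb4 and Hoxb7, and the 5 present genes of Hoxd. In LLC1 7 of 11 members of the Hoxa cluster, 7 of 10 of Hoxb, 0 of 7 of Hoxc and 5 of 7 of Hoxd were present. In SCC1 the counts were 5, 4, 0 and 5, and in SCC2 8, 3, 0 and 5. The Hoxd code was thus the same 5 genes in every line, the Hoxb code was the shortest in SCC2, and no line had a present Hoxc gene.

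**Figure D1:**
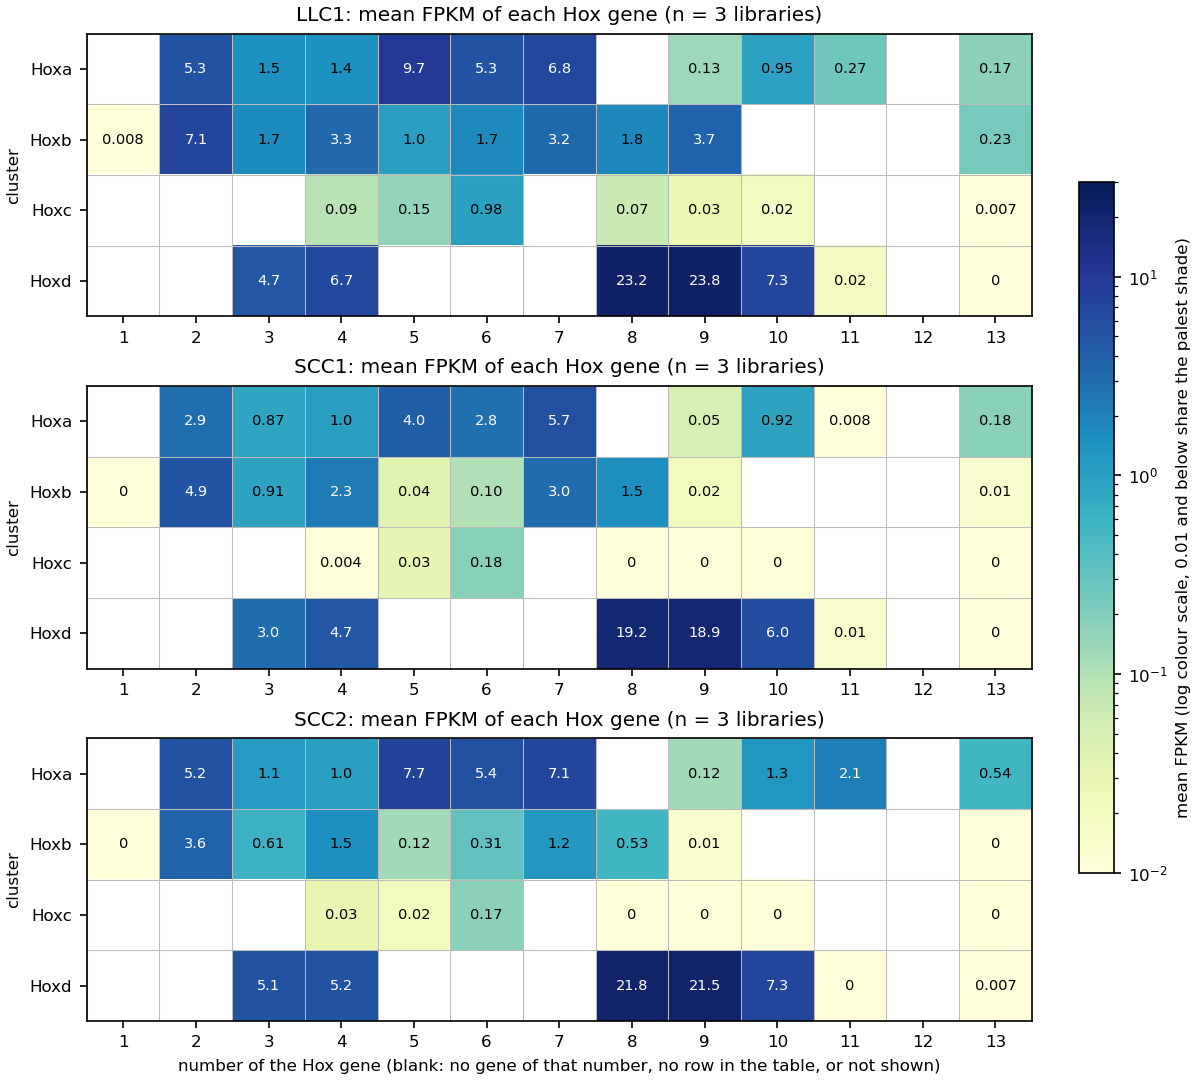
Mean FPKM of each Hox gene (number in each cell and colour on a log scale) by cluster (rows) and number of the gene (columns) in LLC1, SCC1 and SCC2, n = 3 libraries each. Cells are blank where no gene or row exists or the gene is not shown. Hoxd8 and Hoxd9 are the darkest cells in all 3 lines, Hoxb9 goes from 3.68 FPKM in LLC1 to 0.0195 in SCC1 and 0.0132 in SCC2, and Hoxa11 is at 2.11 in SCC2 only.

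The members that left or joined the present set differed in how far they moved. SCC1 lacked Hoxa3, Hoxa4, Hoxb3, Hoxb6 and Hoxb9 of the LLC1 set. SCC2 lacked Hoxa4, Hoxb3, Hoxb6, Hoxb8 and Hoxb9 and had Hoxa10 and Hoxa11 in addition. Hoxb9 and Hoxb6 fell below 0.5 FPKM in every library of both subclones. Hoxa3 in SCC1 (0.854 to 0.880 FPKM) and Hoxb3 in SCC1 (0.883 to 0.938) lay just under the threshold. Hoxa4 missed it through 1 library of each subclone: without SCC1 replicate 2 the SCC1 count was 15, and without SCC2 replicate 2 the SCC2 count was 17. Without LLC1 replicate 3 the LLC1 count was 21, as Hoxa10 and Hoxc6 were then at or above 1 FPKM. Of the 35 members 12 stayed under 1 FPKM in all 9 libraries, the highest value among them being 0.713 for Hoxa13 in 1 SCC2 library: Hoxa9, Hoxa13, Hoxb1, Hoxb13, Hoxc4, Hoxc5, Hoxc8, Hoxc9, Hoxc10, Hoxc13, Hoxd11 and Hoxd13.

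SCC1 was compared with LLC1 first, to see how the code of a subclone differs from that of its parent line. Over all 35 members, 25 were lower in SCC1 and 0 higher (limma, adjusted p under 0.05, with no filter on low values), 71.4% lower where 24.7% of all 15768 genes were lower and 27.1% higher. Counted in either direction, 51.7% of all genes were called. With limma-voom on recovered fragments 24 were lower and 0 higher, where 26.4% and 28.0% of all genes were lower and higher and 54.4% were called in all. The filtered fit used below tested genes with at least 1 FPKM in at least 3 of the 9 libraries, among them 21 members. There 18 of 21 were lower and 0 higher, where 30.9% of the 10519 tested genes were lower, 39.2% higher and 70.1% called in all. Without any 1 SCC2 library Hoxa11 no longer passed it. Hoxb3, Hoxb6 and Hoxb9 passed this filter through LLC1 alone, so these had to lie lower in both subclones. Hoxa11 passed it through SCC2 alone, so it had to lie higher in SCC2 than in the other lines. The filtered counts are therefore given as a description. All 3 SCC1 libraries lay below all 3 LLC1 libraries for 26 of the 35 members and above them for 0, where 27.8% and 29.5% of all genes did so. The median log2 change of the 35 members was -0.27 beside 0 over all genes. Log2 changes are of log2(FPKM + 1), which understates the change of low genes.

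SCC2 was then set against the same 3 LLC1 libraries, which both comparisons share. Over all 35 members 19 were lower and 3 higher without the filter, 54.3% and 8.57%, where 26.0% and 23.9% of all genes were lower and higher. With limma-voom on recovered fragments the counts were again 19 and 3, where 27.6% and 24.7% of all genes were lower and higher and 52.4% called in all. Among the 21 members tested, 14 were lower and 2, Hoxa10 and Hoxa11, higher, where 32.9% and 34.7% of tested genes were lower and higher and 67.6% called in all. As Hoxb3, Hoxb6, Hoxb9 and Hoxa11 passed the filter through 1 of the lines compared, this count too is a description. The SCC2 libraries lay below the LLC1 libraries for 21 of the 35 members and above them for 3, where 28.9% and 26.6% of all genes did so. The median log2 change over the 35 was -0.097 beside -0.0041 over all genes. The lower members were spread unevenly over the clusters: 9 of 10 in Hoxb, 4 of 11 in Hoxa, 4 of 7 in Hoxc and 2 of 7 in Hoxd. In SCC1 the same counts were 7, 9, 4 and 5.

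The summed FPKM of the 35 members was 125 ± 2.40 in LLC1, 84.3 ± 0.762 in SCC1 and 102 ± 1.93 in SCC2 (SD, n = 3 each). The Hoxa sum was 33.8 ± 0.770 in LLC1, 19.5 ± 1.20 in SCC1 and 33.1 ± 0.412 in SCC2. The Hoxb sum was 23.8 ± 1.04, 12.8 ± 0.470 and 7.97 ± 0.584. The subclones thus took the opposite order in these clusters, with SCC1 the lowest line in Hoxa and SCC2 the lowest in Hoxb, and in both cases the libraries of the lines named did not overlap. The Hoxd sum was 65.7 ± 1.79, 51.8 ± 1.72 and 61.0 ± 1.55, and it made up 52.7%, 61.4% and 59.6% of the Hox total. The Hoxc sum was 1.35 ± 0.106 in LLC1, 0.216 ± 0.0869 in SCC1 and 0.220 ± 0.127 in SCC2. These bulk libraries cannot tell fewer cells with a transcript apart from less of it per cell.

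**Figure D2:**
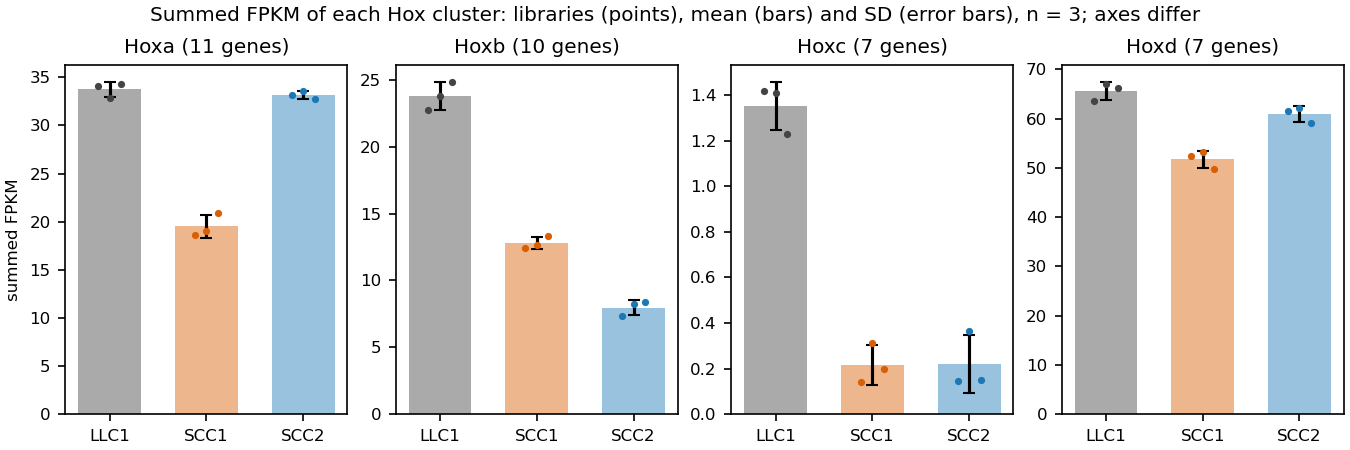
Summed FPKM of the Hoxa, Hoxb, Hoxc and Hoxd clusters in each library (points), with the mean (bars) and SD (error bars) of the 3 libraries of LLC1, SCC1 and SCC2; the axes differ between panels. Hoxa is lowest in SCC1 at 19.5, Hoxb is lowest in SCC2 at 7.97, and Hoxc is near 0.22 in both subclones.

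The Hoxa cluster lies on chromosome 6 (GRCm38) with its genes on the minus strand. Hoxa2, Hoxa3 and Hoxa4 were lower in SCC1 than in LLC1. Hoxa2, which gives the hyoid arch its identity, had 5.24, 4.96 and 5.76 FPKM in the LLC1 libraries, 2.55, 2.95 and 3.14 in SCC1, and 5.17, 5.07 and 5.25 in SCC2. Hoxa2 was low in SCC1 alone, its SCC2 values lying within those of LLC1. The limma log2 change of Hoxa2 was -0.70 ± 0.0611 (SE) in SCC1 (adjusted p = 9.62e-07) and -0.03 in SCC2 (adjusted p = 0.631). Hoxa3, needed for the thymus and parathyroid, had 1.56, 1.42 and 1.48 in LLC1, 0.880, 0.854 and 0.877 in SCC1, and 1.21, 1.08 and 1.02 in SCC2. Hoxa4 had 1.68, 1.22 and 1.45, then 1.18, 0.809 and 1.11, then 1.01, 0.943 and 1.10. Hoxa3 was lower in both subclones, with all libraries apart, but the SCC2 call was lost with quantile normalization (adjusted p = 0.0787). Hoxa4 was also lower in both, with limma adjusted p-values of 0.0114 and 0.0105, but the calls were not stable. Without LLC1 replicate 1 or without SCC1 replicate 2 the adjusted p for SCC1 was 0.0538 or 0.0529, and with quantile normalization the values were 0.105 and 0.172.

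Hoxa5, the Hox gene best known in the lung, had 9.09, 9.96 and 9.93 FPKM in LLC1, 3.76, 3.82 and 4.52 in SCC1, and 7.98, 7.82 and 7.39 in SCC2. No library of a line overlapped another line. Its log2 change was -1.09 ± 0.0583 (SE) in SCC1 (limma adjusted p = 1.66e-08) and -0.29 ± 0.0583 in SCC2 (adjusted p = 0.000949), and SCC1 had 0.417 times the LLC1 level. Hoxa6, a neighbour that patterns the trunk, had 5.53, 5.29 and 5.06 in LLC1, 2.58, 2.61 and 3.30 in SCC1, and 5.34, 5.37 and 5.53 in SCC2. Hoxa7, known from blood progenitors, had 7.37, 6.17 and 6.92, then 5.57, 5.69 and 5.77, then 7.16, 7.52 and 6.58. Both were lower in SCC1 and overlapped LLC1 in SCC2. The deficit of SCC1 was smaller at Hoxa7, at 0.832 times the LLC1 level, than at Hoxa5 or Hoxa6, at 0.417 and 0.535 times.

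The high numbers of Hoxa set the subclones apart. Hoxa10, known in the uterus and in blood progenitors, had 1.0, 1.03 and 0.818 FPKM in LLC1, 0.869, 0.892 and 0.992 in SCC1, and 1.20, 1.23 and 1.41 in SCC2. Only SCC2 stood clear of LLC1, at 1.34 times its level (log2 change 0.22 ± 0.0608, limma adjusted p = 0.00641). In SCC1 the log2 change was -0.02 (adjusted p = 0.735), and with quantile normalization it was 0.19 (adjusted p = 0.0337), so its direction there is not settled. Hoxa11, which acts in the kidney, uterus and forearm, had 0.304, 0.240 and 0.255 in LLC1, 0, 0.0236 and 0 in SCC1, and 1.74, 2.39 and 2.20 in SCC2. These are 33 fragments in LLC1, 1 in SCC1 and 267 in SCC2. SCC2 held 7.91 times the LLC1 level, with a counting interval of 5.50 to 11.7 (95%, exact, counting error only), and a log2 change of 1.29 ± 0.0696 in the limma fit without filter (adjusted p = 9.45e-07). SCC1 held 0.0291 times the LLC1 fragments, with an interval of 7.15e-04 to 0.174. Its log2 change was -0.33 in the same fit (adjusted p = 0.00346), but 0.018 with quantile normalization (adjusted p = 0.847). In GENCODE M21 the exons of Hoxa11 share 35.0% of their bases with Hoxa11os on the opposite strand. Without knowing whether strand was used in counting, reads of the pair cannot be told apart. The same limit holds for Hoxa3, Hoxa7 and Hoxa4, which share 25.4%, 20.4% and 16.0% of exon bases with genes on the opposite strand.

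Hoxa13, the last gene of the cluster and a gene of the digits and hindgut, stayed under 1 FPKM and had 12 fragments in LLC1, 13 in SCC1 and 39 in SCC2. SCC2 held 3.16 times the LLC1 level, with a counting interval of 1.63 to 6.67 for the fragments and an adjusted p of 0.00755 in the limma fit without filter. Hoxa9, best known from leukaemia, had 23, 9 and 22 fragments in the lines in that order, or 0.133, 0.0493 and 0.124 FPKM. Hoxa9 was thus nearly silent between Hoxa7 and Hoxa10 in all 3 lines.

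**Figure D3:**
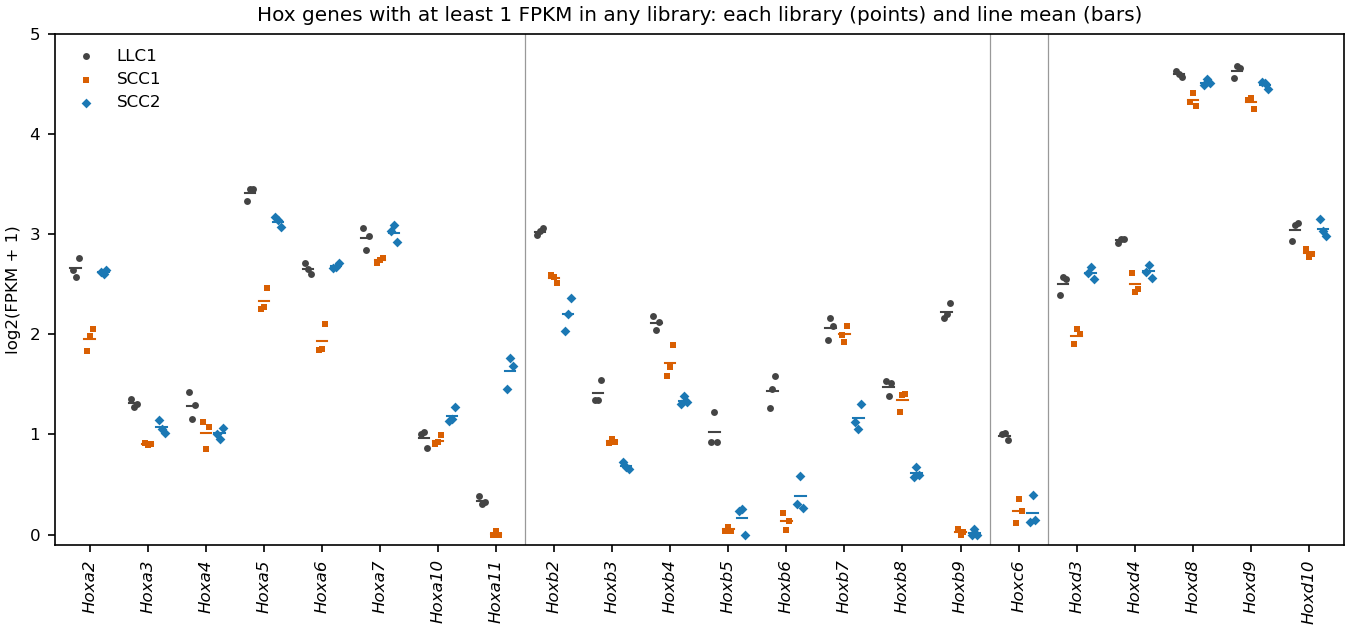
log2(FPKM + 1) in each library (points) and the line mean (short bars) for 22 Hox genes with at least 1 FPKM in any library, in order of cluster and number, with LLC1 in grey, SCC1 in orange and SCC2 in blue. Hoxa11 is high in the 3 SCC2 libraries only, and Hoxb5, Hoxb6, Hoxb9 and Hoxc6 are high in the 3 LLC1 libraries only.

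The Hoxb cluster (chr11:96194316-96368254, GRCm38, plus strand) held Hoxb9, the gene with the lowest subclone to LLC1 ratios among members with 30 or more LLC1 fragments. Hoxb9, which patterns the rib cage and the mammary gland, had 3.47, 3.6 and 3.98 FPKM in the LLC1 libraries, 0.0381, 0 and 0.0203 in SCC1, and 0, 0.0397 and 0 in SCC2. In fragments these are 536 in LLC1, 3 in SCC1 and 2 in SCC2, so the gene was under the floor in each subclone library. The LLC1 fragments were 63.4 to 906 times those of SCC1 and 75.5 to 2269 times those of SCC2 (95% counting intervals). In the fit without filter the limma log2 change was -2.20 ± 0.0461 in SCC1 (adjusted p = 3.78e-09) and -2.21 ± 0.0461 in SCC2 (adjusted p = 5.33e-09).

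Among the paralogues of number 9 the level in LLC1 was 23.8 FPKM for Hoxd9, 3.68 for Hoxb9, 0.133 for Hoxa9 and 0.0272 for Hoxc9. The sum of the 4 was 27.7 ± 1.26 in LLC1, 19.0 ± 0.834 in SCC1 and 21.7 ± 0.637 in SCC2. Hoxd9 did not rise where Hoxb9 was lost, but was itself at 0.795 and 0.903 times its LLC1 level.

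Hoxb5 and Hoxb6 stood beside Hoxb9 as genes of LLC1. Hoxb6 had 1.39, 1.74 and 1.99 FPKM in LLC1, 0.160, 0.0334 and 0.102 in SCC1, and 0.240, 0.498 and 0.202 in SCC2. Hoxb5, which takes part in gut innervation and early lung growth, had 0.903, 1.33 and 0.894, then 0.0272, 0.0569 and 0.0289, then 0.175, 0.198 and 0. Every subclone library lay below every LLC1 library for both genes. For Hoxb6 the subclones had 0.0575 and 0.183 times the LLC1 level, with log2 changes in the limma fit without filter of -1.30 ± 0.102 (adjusted p = 7.94e-06) and -1.05 ± 0.102 (adjusted p = 3.54e-05). Hoxb5, tested only without the filter, had 107 fragments in LLC1, 4 in SCC1 and 13 in SCC2, with adjusted p-values of 2.30e-05 and 5.63e-05. Hoxb13, a gene of the tail bud and prostate, had 17, 1 and 0 fragments, and the upper 95% counting limit of its SCC2 to LLC1 ratio was 0.237.

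Hoxb7 and Hoxb8, which lie between Hoxb6 and Hoxb9, overlapped LLC1 in the SCC1 libraries but not in SCC2. Hoxb7 had 2.85, 3.46 and 3.25 FPKM in LLC1, 2.98, 2.79 and 3.24 in SCC1, and 1.19, 1.07 and 1.47 in SCC2. Hoxb8, known from myeloid progenitors, had 1.89, 1.61 and 1.86, then 1.33, 1.63 and 1.65, then 0.488, 0.600 and 0.515. LLC1 and SCC1 overlapped for both genes, and the SCC2 libraries lay below both lines. For Hoxb8 the limma log2 change was -0.86 ± 0.0653 in SCC2 (adjusted p = 3.84e-07) and -0.14 ± 0.0653 in SCC1 (adjusted p = 0.0817). For Hoxb7 they were -0.90 ± 0.075 (adjusted p = 8.24e-07) and -0.06 (adjusted p = 0.475). Both SCC1 values crossed the threshold when the median change of the chromosome was taken off, at adjusted p-values of 0.0186 for Hoxb7 and 0.00159 for Hoxb8, and Hoxb8 also without LLC1 replicate 2 (0.0382).

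The low numbers of Hoxb stepped down from LLC1 over SCC1 to SCC2. Hoxb2, a hindbrain gene, had 6.94, 7.16 and 7.34 FPKM in LLC1, 5.04, 4.96 and 4.69 in SCC1, and 3.10, 3.6 and 4.14 in SCC2. Hoxb3 had 1.54, 1.53 and 1.92, then 0.883, 0.938 and 0.895, then 0.648, 0.601 and 0.573. Hoxb4, known for its effect on blood stem cells, had 3.54, 3.11 and 3.35, then 1.99, 2.18 and 2.71, then 1.46, 1.61 and 1.5. The 3 lines did not overlap for any of these genes. Log2 changes were -0.40 to -0.48 in SCC1 and -0.73 to -0.83 in SCC2, all with limma adjusted p-values of 0.00197 or less in the fit without filter. By the GENCODE M21 models, which may differ from those used for counting, Hoxb3 shares 52.9% and Hoxb2 27.3% of exon bases with Hoxb3os. Hoxb3os lies on the opposite strand, so the values of both genes may include reads of it. Hoxb1, the first gene of the cluster, had 1 fragment in LLC1 and 0 in both subclones.

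**Figure D4:**
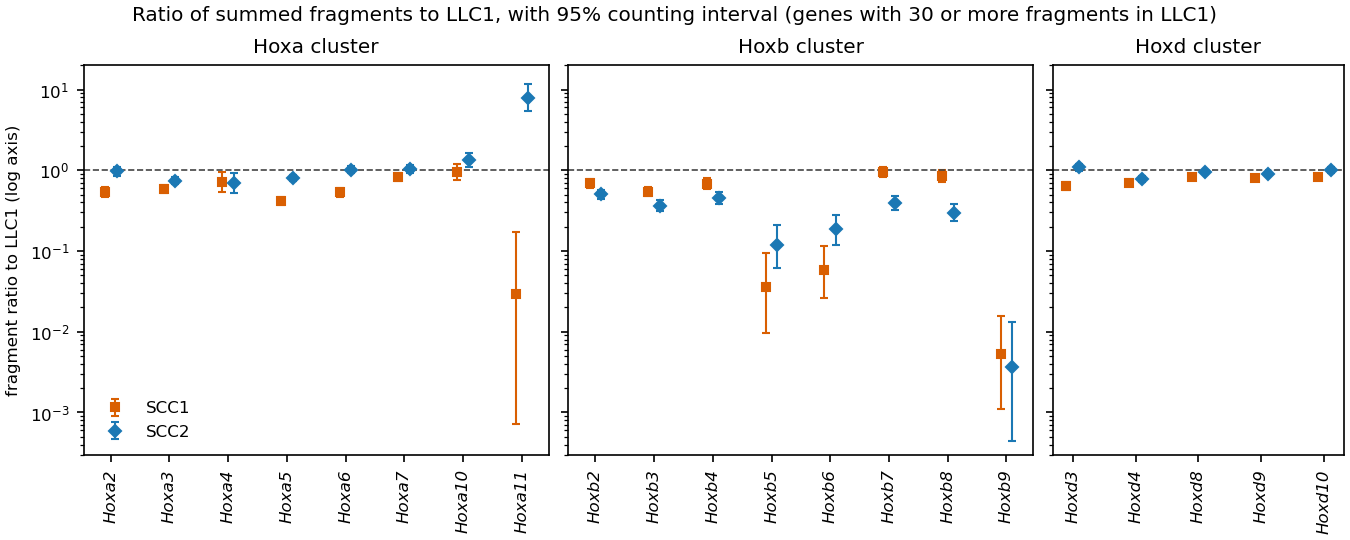
Fragments of each Hox gene in SCC1 (squares) and SCC2 (diamonds) divided by those in LLC1, on a log axis, with 95% counting intervals (bars), for the genes shown, all with 30 or more fragments in LLC1; the dashed line marks equal levels. In Hoxb the SCC1 ratio is near 1 at Hoxb7 and Hoxb8 and far below it at Hoxb5, Hoxb6 and Hoxb9, while in Hoxd all ratios lie between 0.633 and 1.09.

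The spread of the ratios within a cluster was wide in Hoxa and Hoxb and narrow in Hoxd. Among the 8 Hoxb genes with at least 30 fragments in LLC1, the SCC1 level ran from 0.00528 times LLC1 for Hoxb9 to 0.943 times for Hoxb7, and the SCC2 level from 0.00359 for Hoxb9 to 0.506 for Hoxb2. Among 9 Hoxa genes the range was 0.0295 for Hoxa11 to 0.964 for Hoxa10 in SCC1, and 0.702 for Hoxa4 to 7.91 for Hoxa11 in SCC2. Among the 5 Hoxd genes it was 0.633 to 0.829 in SCC1 and 0.778 to 1.09 in SCC2.

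The Hoxd cluster (chr2:74668225-74765142, GRCm38, plus strand) held the most abundant members. Hoxd8 had 23.7, 23.3 and 22.8 FPKM in LLC1, 19.0, 20.3 and 18.4 in SCC1, and 21.4, 22.4 and 21.7 in SCC2. Hoxd9, a gene of the limbs and of motor neurons, had 22.6, 24.5 and 24.3, then 19.3, 19.6 and 18.0, then 21.9, 21.8 and 20.8. SCC1 was the lowest line for both, with log2 changes of -0.26 ± 0.035 (limma adjusted p = 3.69e-05) and -0.32 ± 0.0398 (adjusted p = 2.25e-05). The SCC2 changes were -0.09 (adjusted p = 0.046) for Hoxd8 and -0.14 (adjusted p = 0.00841) for Hoxd9, and both calls were lost with the chromosome median taken off (0.356 and 0.0706). The Hoxd8 call was also lost in the fit without filter (0.0706) and without any of 5 libraries, at adjusted p-values of 0.134 without LLC1 replicate 1, 0.0923 without LLC1 replicate 2, 0.056 without SCC1 replicate 1, 0.133 without SCC2 replicate 1 and 0.0993 without SCC2 replicate 3. Hoxd8 and Hoxd9 together made up 37.8% of the Hox FPKM in LLC1, 45.2% in SCC1 and 42.4% in SCC2.

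Hoxd10, which helps to set the lumbar region, had 6.60, 7.52 and 7.63 FPKM in LLC1, 6.23, 5.82 and 5.99 in SCC1, and 7.87, 7.15 and 6.92 in SCC2. Hoxd3, a gene of the neck vertebrae, had 4.26, 4.97 and 4.85, then 2.75, 3.16 and 3.0, then 5.10, 5.39 and 4.85. Hoxd4 had 6.50, 6.75 and 6.73, then 5.13, 4.36 and 4.49, then 5.16, 5.48 and 4.91. All were lower in SCC1, at 0.829, 0.633 and 0.700 times LLC1. In SCC2 Hoxd4 alone of them was lower (log2 change -0.31, limma adjusted p = 0.000311), while Hoxd3 and Hoxd10 overlapped LLC1. In the GENCODE M21 models 62.3% of the exon bases of Hoxd3 and 52.3% of Hoxd4 are shared on the same strand. They are shared between the genes or with Gm28230. The models used for counting are not given, so how reads were split between Hoxd3 and Hoxd4 is uncertain. Beyond Hoxd10 the cluster was silent: Hoxd11 had 4, 3 and 0 fragments in the 3 lines and Hoxd13 had 0, 0 and 1.

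The Hoxc cluster (chr15:102921131-103036856, GRCm38, plus strand) was near silent, and what it held was in LLC1. Hoxc6 had 1.01, 1.02 and 0.929 FPKM in LLC1, 0.0835, 0.280 and 0.177 in SCC1, and 0.0896, 0.313 and 0.105 in SCC2. It fell to 0.183 and 0.172 times the LLC1 level, with no overlap between LLC1 and either subclone, and with adjusted p-values of 5.00e-05 and 5.07e-05 in the limma fit without filter. Hoxc4 had 23 fragments in LLC1, 1 in SCC1 and 8 in SCC2, and Hoxc5 had 23, 5 and 3. Hoxc8, a gene of brachial motor neurons, had 9 fragments in LLC1 and 0 in both subclones, with upper 95% counting limits of 0.486 and 0.495 for the ratios of SCC1 and SCC2 to LLC1. Hoxc9, Hoxc10 and Hoxc13 had 2, 2 and 1 fragments in LLC1 and 0 in both subclones, which is not a detectable difference at this depth.

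Read across the clusters by number, the paralogue sums of SCC1 were lowest against LLC1 at numbers 5 and 6 among those above 1 FPKM. The sum for number 5 was 10.9 ± 0.664 FPKM in LLC1, 4.10 ± 0.403 in SCC1 and 7.87 ± 0.408 in SCC2. For number 6 it was 7.99 ± 0.0607, 3.11 ± 0.411 and 5.90 ± 0.259. SCC1 thus held 0.378 and 0.389 times the LLC1 sum at these numbers and 0.868 times at number 7 (10.0 ± 0.322 against 8.68 ± 0.291). At number 8 the sums were 25.1 ± 0.491, 20.8 ± 0.988 and 22.4 ± 0.546. At number 10 SCC2 had 8.59 ± 0.412 beside 8.22 ± 0.512 in LLC1 and 6.93 ± 0.196 in SCC1. Number 11 had 0.285 ± 0.0405 in LLC1, 0.0213 ± 0.0137 in SCC1 and 2.11 ± 0.334 in SCC2, all but 4 of its LLC1 fragments and all of its SCC2 fragments coming from Hoxa11.

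The direct comparison of the subclones split by cluster. Over all 35 members 14 were higher in SCC2 than in SCC1 and 5 lower (limma without filter), 40% and 14.3%, where 27.1% and 29.1% of all genes were higher and lower and 56.1% called in all. With limma-voom on recovered fragments 16 were higher and 6 lower, where 28.6% and 30.5% of all genes were and 59.0% were called in all. The SCC2 libraries lay above the SCC1 libraries for 16 members and below them for 6, where 29.6% and 31.0% of all genes did so. By cluster, in the limma fit without filter, in Hoxa 10 of 11 were higher and 0 lower, in Hoxb 0 higher and 5 of 10 lower, in Hoxc 0 of 7 were called, and in Hoxd 4 of 7 were higher and 0 lower. The further calls of limma-voom were Hoxb6 and Hoxc4, higher in SCC2, and Hoxd11, lower. With the filter 14 of the 21 tested were higher and 5 lower, where 37.0% and 39.4% of tested genes were and 76.3% were called in all. Hoxa11, among the higher, passed the filter through SCC2 alone, so this count is a description. When the chromosome medians were taken off, the split was 16 higher and 2 lower, beside 33.3% and 33.7% of all tested genes. The 16 include Hoxa4 and Hoxb9, whose SCC1 and SCC2 libraries overlapped and whose log2 changes before this step were -0.006 and -0.009. Hoxb9 had 2 fragments in SCC2 and 3 in SCC1. The median change of all tested genes between the subclones was -0.23 on chromosome 6 and -0.21 on chromosome 11, so these 2 calls come from the step itself. The 5 lower genes were Hoxb2, Hoxb3, Hoxb4, Hoxb7 and Hoxb8. For Hoxb7 and Hoxb8 SCC2 held 0.414 and 0.348 times the SCC1 level (limma adjusted p = 7.89e-07 and 8.61e-07). For Hoxb2, Hoxb3 and Hoxb4 it held 0.738, 0.671 and 0.664 times, and these calls were lost with the chromosome medians taken off (adjusted p = 0.0835, 0.675 and 0.0673). Hoxa5 and Hoxa6 were at 1.92 and 1.91 times the SCC1 level in SCC2, and Hoxd3 at 1.72 times. The Hoxb6 and Hoxd4 calls between the subclones, both higher in SCC2, were lost without the filter (adjusted p = 0.0632 and 0.0749). The Hoxb6 call was also lost without SCC1 replicate 2 (0.11), SCC1 replicate 3 (0.0659) or SCC2 replicate 2 (0.153). The Hoxd4 call was lost without LLC1 replicate 1, 2 or 3, SCC1 replicate 2 or 3, or SCC2 replicate 1 or 2, at adjusted p-values of 0.0541 to 0.172.

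Genes beside the clusters were measured for comparison. Of the 3 nearest protein-coding genes on each side of the 4 clusters, 24 in all, 18 were tested. In SCC1 10 of them were higher and 2 lower than in LLC1, beside 39.2% and 30.9% of all tested genes, with a median log2 change of 0.11 and a range of -0.33 to 0.47. In SCC2 2 were higher and 11 lower, beside 34.7% and 32.9%, with a median of -0.15 and a range of -0.86 to 0.22. In neither comparison did any change by 2-fold or more. The median change of all tested genes on the 4 Hox chromosomes in SCC1 was 0.099 on chromosome 2, 0.13 on 6, 0.17 on 11 and 0.16 on 15. In SCC2 it was -0.044, -0.10, -0.036 and -0.26. These medians were above 0 in SCC1, where 18 of 21 tested members were lower and 3 (Hoxa10, Hoxb7 and Hoxb8) did not pass the test. With the chromosome medians taken off, 21 of the 21 tested members were lower in SCC1, where 30.7% of all tested genes were, and 11 were lower and 3 higher in SCC2, where 29.6% and 29.3% were. Hoxb3, Hoxb6 and Hoxb9 were among these only because they were high in LLC1, and Hoxa11 only because it was high in SCC2. The counts of tested members are thus a description and no support.

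**Figure D5:**
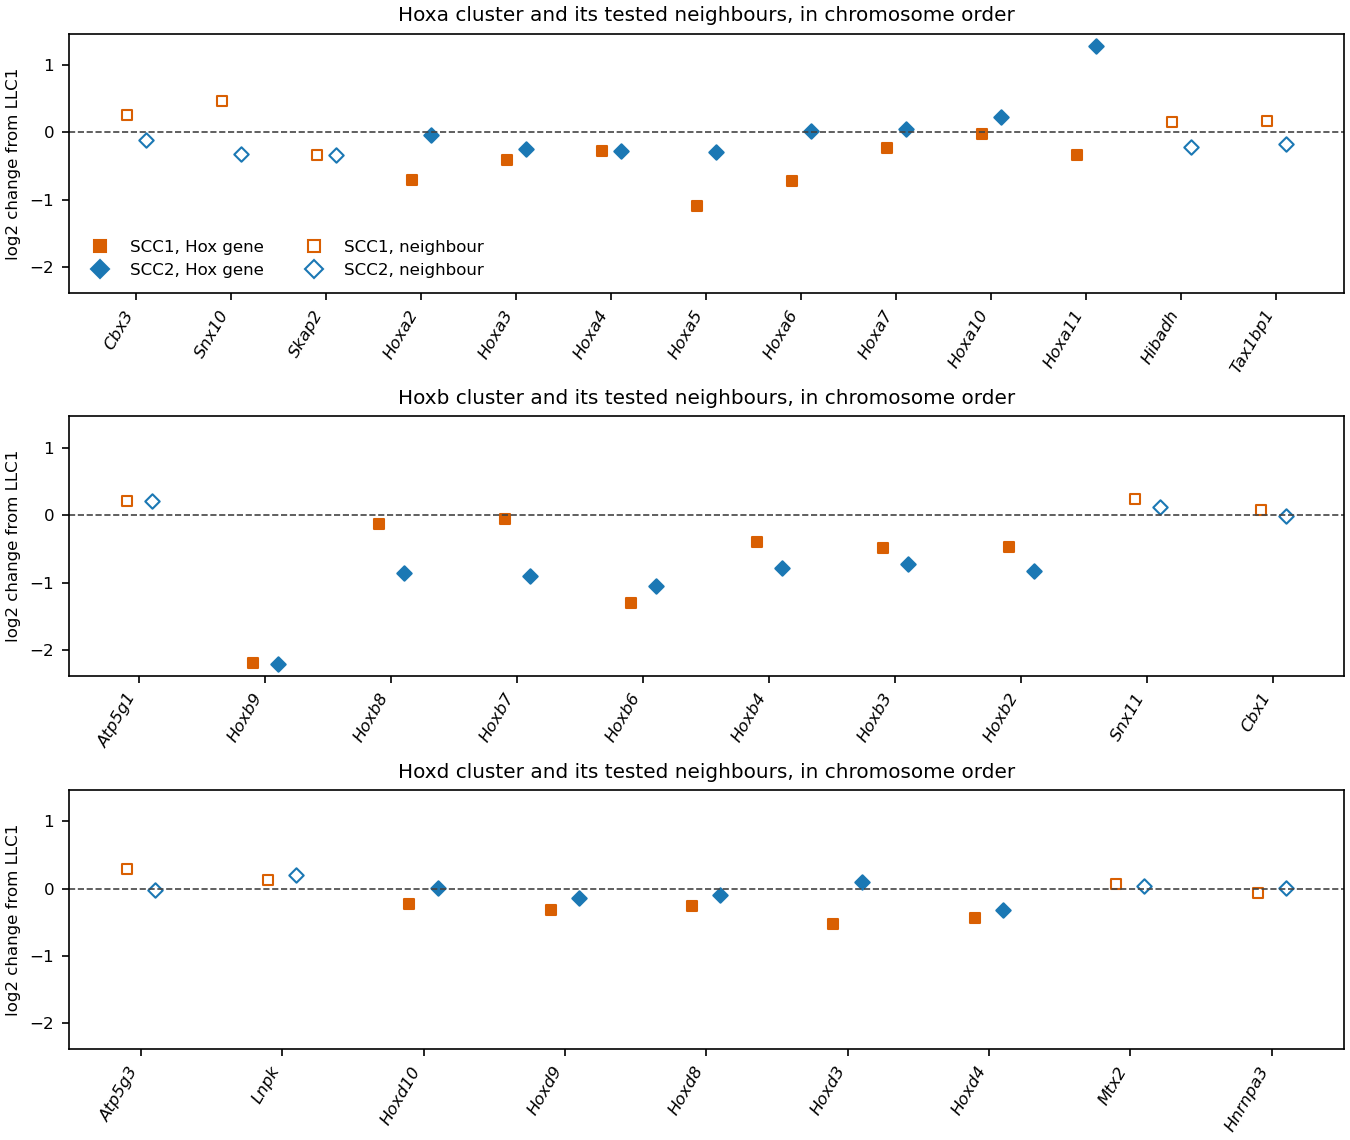
Log2 change from LLC1 of tested Hox genes (filled) and of the tested protein-coding neighbours (open) in SCC1 (squares) and SCC2 (diamonds), in order along the chromosome for the Hoxa, Hoxb and Hoxd clusters; the dashed line marks no change. The neighbours lie within -0.33 to 0.47 in these panels, while Hoxb9 lies at -2.20 and -2.21 and Hoxa11 at 1.29 in SCC2.

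Hox proteins bind DNA together with cofactors of the PBC and MEIS families, and 9 such genes had a row and 7 were tested. Among all tested genes 39.2% were higher and 30.9% lower in SCC1, and 34.7% and 32.9% in SCC2, and the counts of this and the following gene lists are to be read against these shares. In SCC1 1 cofactor gene was higher and 4 lower than in LLC1, and in SCC2 0 higher and 4 lower, with median log2 changes of -0.14 and -0.25 beside 0.033 and 0.0075 over all tested genes. Meis1, a partner of Hox proteins in leukaemia, had 11.1 ± 0.168 FPKM in LLC1, 6.90 ± 0.150 in SCC1 and 5.87 ± 0.0597 in SCC2 (SD, n = 3). It was lower in both subclones, with limma adjusted p-values of 1.23e-08 and 1.55e-09. Meis2 was lower in both too, at 8.37, 5.68 and 6.92 FPKM. Meis3 went up in SCC1 and down in SCC2, at 7.01, 9.89 and 5.18 FPKM, and Pbx2 was lower in SCC2.

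Of the 6 ParaHox genes, the sister family of the Hox genes, Cdx2 alone had a row. Cdx2, which switches on Hox genes of the trunk and tail and marks intestinal epithelium, had 2.41 ± 0.137 FPKM in LLC1, 5.22 ± 0.341 in SCC1 and 8.49 ± 0.402 in SCC2. It rose in both subclones, with log2 changes of 0.87 (limma adjusted p = 3.86e-08) and 1.48 (adjusted p = 6.40e-10). Of 12 retinoid genes with a row 5 were tested, and 0 were higher in either subclone, while 1 was lower in SCC1 and 4 in SCC2 (30.9% and 32.9% of all tested genes were lower). Crabp1, which binds retinoic acid in the cytoplasm, had 6.42 ± 0.769 FPKM in LLC1, 1.29 ± 0.126 in SCC1 and 0.721 ± 0.247 in SCC2. Among 4 other upstream factors tested, 1 was higher in SCC1 and 3 in SCC2. Of these Gmnn, the inhibitor of replication licensing that also binds Hox proteins, had 14.9, 17.3 and 20.1 FPKM.

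Polycomb proteins keep Hox genes silent and Trithorax proteins keep them active. Of 23 Polycomb genes tested 9 were higher and 4 lower in SCC1, and 5 higher and 11 lower in SCC2, beside 39.2% and 30.9%, then 34.7% and 32.9%, of all tested genes. The median log2 change was -0.0018 in SCC1 and -0.078 in SCC2. Cbx7, a chromodomain subunit, was lower in SCC2 (log2 change -0.67, limma adjusted p = 7.72e-09), and Aebp2 higher in SCC1 (0.54, adjusted p = 2.48e-08). Of 16 Trithorax and H3K27 demethylase genes 6 were higher and 5 lower in SCC1, and 10 higher and 3 lower in SCC2, the SCC1 counts lying near those shares. Kmt2a, the methyltransferase best known for holding Hox genes on, had 22.3 ± 0.192 FPKM in LLC1, 17.4 ± 0.190 in SCC1 and 15.7 ± 0.429 in SCC2 and was lower in both (limma adjusted p = 4.88e-07 and 3.19e-08). Psip1, which tethers it to chromatin, was lower in both as well, with log2 changes of -0.65 in SCC1 and -0.27 in SCC2. Others of this list with the smallest adjusted p went both ways. Wdr5 and Dpy30 were higher in SCC1 (0.30 and 0.34), and in SCC2 Rbbp5 was higher (0.29) and Kmt2d lower (-0.45). Among 5 tested genes of other ANTP homeobox families 2 were lower and 0 higher in SCC1, and 3 lower and 2 higher in SCC2, where 70.1% and 67.6% of all tested genes were called in either direction. Dlx1, a gene of the forebrain and jaw, had 11.1, 6.13 and 9.08 FPKM. None of 24 listed noncoding RNA genes of the Hox clusters had a row.

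RefSeq promoters, 250 bases before to 50 after the start, were at hand for 20 of the 35 members (22 windows, GRCm38.p6). The letters TTTATNG, in which Cdx proteins are known to bind, were searched on both strands and stood in 2 of the 22 windows, those of Hoxb8 and Hoxd4, and in 10.9% of all 32851 windows. TGATTNAT, the letters of a Hox and PBC pair, stood in 2 (Hoxa2 and Hoxd11) beside 3.22% of all, and AGGTCA, the core letters of retinoid receptor sites, in 7 beside 16.3%. The Hoxa11 window held none of TTTATNG. The 3 promoters are shown 5′ to 3′ on the strand of the gene, with TTTATNG matches of either strand in capitals. Hoxa11 is shown as the gene that rose in SCC2 (chr6:52245761-52246060, minus strand). Hoxb8 (chr11:96281655-96281954, plus strand) and Hoxd4 (chr2:74721728-74722027, plus strand) are shown as the only members whose windows hold the letters. Hoxb5, Hoxb6, Hoxb7 and Hoxb9 were among the members without a window.
Hoxa11: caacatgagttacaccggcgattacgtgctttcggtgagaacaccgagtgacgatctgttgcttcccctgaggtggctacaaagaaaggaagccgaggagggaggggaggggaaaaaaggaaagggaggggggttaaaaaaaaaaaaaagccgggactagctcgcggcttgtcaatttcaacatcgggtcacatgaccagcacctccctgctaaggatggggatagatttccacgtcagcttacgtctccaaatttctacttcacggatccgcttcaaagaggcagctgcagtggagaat
Hoxb8: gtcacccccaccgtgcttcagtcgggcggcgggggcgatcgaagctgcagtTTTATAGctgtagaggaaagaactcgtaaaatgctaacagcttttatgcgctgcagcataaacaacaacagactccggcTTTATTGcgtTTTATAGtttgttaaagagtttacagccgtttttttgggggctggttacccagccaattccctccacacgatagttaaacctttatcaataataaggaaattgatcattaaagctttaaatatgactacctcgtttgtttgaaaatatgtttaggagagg
Hoxd4: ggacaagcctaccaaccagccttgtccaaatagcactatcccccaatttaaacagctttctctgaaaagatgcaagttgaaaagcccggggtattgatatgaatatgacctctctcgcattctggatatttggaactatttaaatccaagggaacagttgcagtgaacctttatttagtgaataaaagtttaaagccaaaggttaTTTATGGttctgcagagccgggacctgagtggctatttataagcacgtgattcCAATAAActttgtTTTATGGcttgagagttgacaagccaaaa
Hoxb8 held 3 matches in the direction of the gene, and Hoxd4 held 2 and 1 on the other strand. Windows of Hox genes held 4 to 45 CG dinucleotides with a median of 14.5, beside a median of 7 over all promoters, and 15 in the Hoxa11 window, 13 in that of Hoxb8 and 4 in that of Hoxd4. A match of letters is a description of the window and not a bound site.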

How the data were processed

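Groups came from the sample titles, 3 libraries per line. The authors deposited 1 table of FPKM, computed with cufflinks after trimming with Trimmomatic and alignment with hisat2 per the series' design text. GRCm38 and mm10 are the builds that the submitters' processing notes name. Annotation, tool versions and strand setting: not given in the sources used here. The labels name a SMARTER kit and the design text a TruSeq stranded kit. Members were matched by symbol; the members and all gene lists were chosen with earlier results of these data known. Positions came from GENCODE M21 and RefSeq, both GRCm38. Genes with at least 1 FPKM in 3 libraries (10519) were tested on log2(FPKM + 1) in R 4.3.3, using limma 3.58.1 (robust eBayes with a trend, all 9 libraries, two-sided, Benjamini-Hochberg over all genes tested, threshold 0.05). Whole fragments were recovered from the FPKM steps, within 0.001 fragments for all 12270 genes above 0 in every library, up to a factor common to a gene. Counting intervals (95%, exact) and the floor of 3 fragments cover counting error only. The chi-square per gene between replicates was 1.19 to 1.69, where counting error alone gives about 1. These values cannot tell whether the libraries of a line are technical repeats, and all 9 were kept as separate libraries. On simulated data 100% of genes changed 1.5-, 2- or 4-fold were called in each comparison. The changed genes all had at least 2 FPKM in each of the 9 libraries, and the same small spread was set for every gene. The simulation thus does not show how often changes of members at lower levels are called. By rule, members with 1 FPKM or more in a library are given by library (a few items are not reported here), and of each list at most the 4 members of smallest adjusted p were named by rule; Ager was named after its values were seen. Other steps used Python 3.11.15 with scipy 1.17.1.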

Additional observations from a re-analysis of the deposited data

Results flagged for a closer look

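Hoxa11 lay on opposite sides of LLC1 in the subclones. All 3 SCC2 libraries (1.74 to 2.39 FPKM) lay above the LLC1 libraries (0.240 to 0.304 FPKM), and all 3 SCC1 libraries (0 to 0.0236 FPKM) lay below them. The difference between the subclones was 1.62 ± 0.0696 on the log2(FPKM + 1) scale (SCC2 minus SCC1, SE, n = 3 each, limma without filter, adjusted p = 1.12e-07). It is this difference that singled the gene out, so its p-value is no separate support. The SCC1 part rests on 33 fragments in LLC1 against 1 in SCC1. With quantile normalization the SCC1 change was 0.018 and not past the threshold (adjusted p = 0.847), while SCC2 stayed above SCC1 under the 16 alternatives that gave it a value (limma adjusted p at most 1.12e-07). Without any 1 SCC2 library the gene no longer passed the filter on low values and was not tested, so these 16 do not show how far the call rests on a single SCC2 library.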

How the results depend on the processing

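Of 1188 alternative values for the 63 changes of tested members, 1126 kept their direction and their side of the threshold, 14 changed sign without passing the threshold on either side (Hoxa2, Hoxa4, Hoxa7, Hoxa10, Hoxb9 and Hoxd10, each in 1 comparison), 39 lost the call, 5 gained it and 4 others changed sign. These 4 were Hoxa10 in SCC1 against LLC1 (0.19, limma adjusted p = 0.0337) and Hoxa11 in SCC1 against LLC1 (0.018, adjusted p = 0.847) with quantile normalization, and Hoxa4 (0.24, adjusted p = 0.0221) and Hoxb9 (0.21, adjusted p = 0.00556) in SCC2 against SCC1 with the chromosome medians removed, an alternative chosen after the data were seen, as was limma-voom without filter. Removing the medians moves all tested genes of a chromosome alike, so the Hoxa4 and Hoxb9 values come from that step and show no rise of either gene. The cause of the changes with quantile normalization was not tested. With a filter of at least 5 FPKM, which left 9 members to test, 9 were called in SCC1, 5 in SCC2 and 9 between the subclones. At 2 FPKM in place of 1, 10 members were present in SCC2. Leaving out each library in turn gave 14 to 18 called members in SCC1, 12 to 16 in SCC2 and 16 to 19 between the subclones, of 18 members tested without an LLC1 library, 20 without an SCC2 library and 21 otherwise, and 19 to 21, 14 to 15 and 16 to 17 present members in LLC1, SCC1 and SCC2. The replicate numbers did not pair the libraries, since same-numbered libraries correlated by -0.0683 to 0.089 in their deviations. With the replicate number as a block the called members were 18, 16 and 18. Members near the floor of 3 fragments in a library, most of Hoxc among them, are limited by depth.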
